A study of Mus musculus with 6 samples.

Results

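Blood and lymphatic endothelial cells line vessels, and their RNA was followed here through 33 marker genes in cultures of gut mesenchyme. The members were taken by symbol from a prepared list, and all 33 have a row among the 23329 genes of the deposited tables. The cultures came from the small intestine of C57 mice, 3 taken from embryos (E14.5, embryonic day 14.5) and 3 taken from adults, and no transgene, mutation or treatment that differs between them is named in the labels. All 6 were grown in medium with serum and Y27632. Per the labels' protocols, epithelium was removed by chelation, the rest was digested with collagenase and dispase, and RNA was taken from confluent cultures at passage 2 to 3. Adult gut had its villi scraped off first, whereas embryonic gut was cut into pieces, and no sort that would remove or enrich endothelium is named. Whether the 3 cultures of a stage stem from separate animals is not given in the labels, so p-values measure only the spread between these cultures.

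Endothelial cells are held together by VE-cadherin, which Cdh5 encodes, and by PECAM1, and they respond to vascular endothelial growth factors through the receptors FLT1, KDR and FLT4 and to angiopoietins through TEK. Their identity rests on transcription factors of the ETS family such as ERG and of the SOXF group (SOX7, SOX17 and SOX18). Lymphatic endothelium arises from veins under PROX1 and is known for LYVE1 and FLT4, whereas gut blood capillaries carry fenestrae closed by diaphragms of PLVAP.

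The 33 genes varied widely between cultures of the same stage. Adult replicates 2 and 3 stood apart from adult replicate 1 and from all 3 E14.5 libraries, so results are given below with and without them. Levels are CPM, read counts scaled to a common library size corrected by the trimmed mean of M-values (TMM). Summed over the 33 genes, E14.5 replicates 1, 2 and 3 held 275, 124 and 260 CPM, and adult replicates 1, 2 and 3 held 300, 3210 and 980 CPM. They took 0.343% of all gene counts in adult replicate 2, 0.0932% in adult replicate 3 and 0.0125% to 0.0282% in the other libraries. In bulk RNA, fewer cells of a type and less RNA per cell cannot be told apart.

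**Figure D1:**
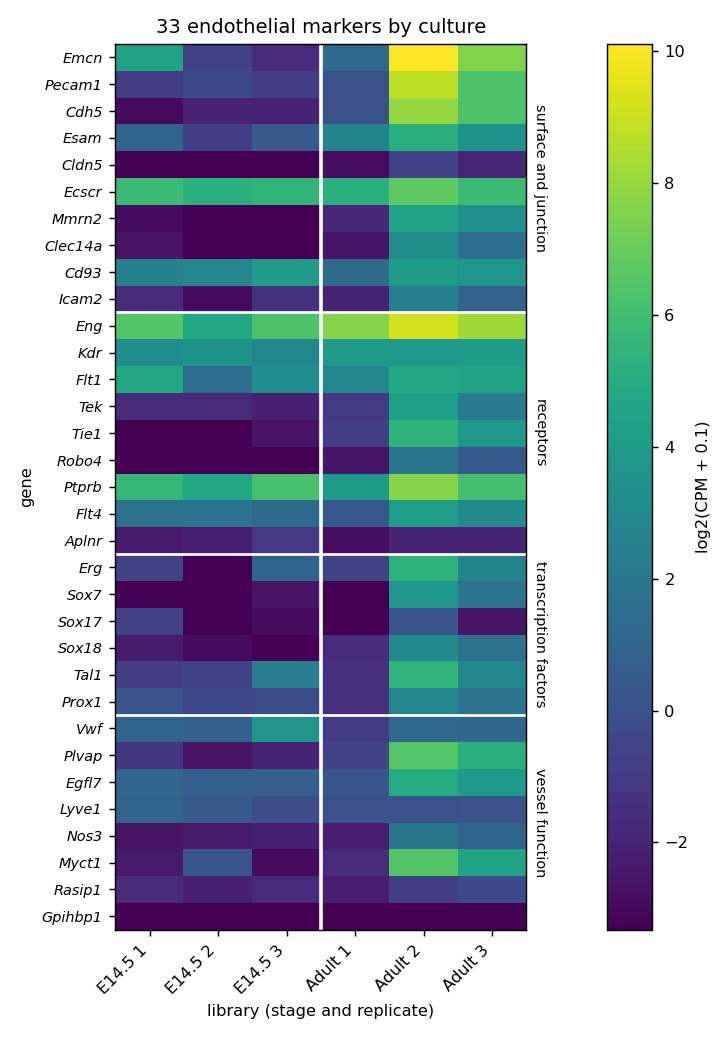
Level of each of the 33 endothelial markers (rows, by role) in each of the 6 libraries (columns), as log2(CPM + 0.1), with a white line between E14.5 and adult cultures. Adult replicates 2 and 3 are bright for most rows, whereas Eng, Ecscr, Ptprb, Kdr and Flt1 are seen in every library and Gpihbp1 has 0 counts in all 6.

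Adult replicate 2, the library with the highest endothelial level, was also the shallowest, with 18850224 gene counts against 28094847 to 32672370 in the others. All 13 mesenchymal markers of a prepared list (collagens, Pdgfra, Pdgfrb, Vim, Dcn, Lum, Thy1 and smooth muscle genes) had counts in every library. They summed to 27495 CPM in adult replicate 2 and to 36031 to 49468 CPM elsewhere. The 18 macrophage and leukocyte markers reached sums of 294, 533 and 3402 CPM at E14.5, against 218, 27.3 and 56.3 CPM in adult cultures. Sums of 9 mesothelial markers ran from 171 to 879 CPM at E14.5 and from 691 to 1627 CPM in adults. Sums of 7 pericyte markers ran from 30.4 to 298 CPM and from 76.5 to 89.4 CPM. Epithelial markers (7 genes) summed to 61.8, 47.7 and 25.4 CPM at E14.5 and to at most 14.4 CPM in adults. Of these, Krt20 alone gave 61.4, 47.0 and 24.4 CPM at E14.5 and 9.09 to 13.8 CPM in adults, whereas Epcam, which defines epithelium, had 0.0618 to 0.141 CPM.

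**Figure D2:**
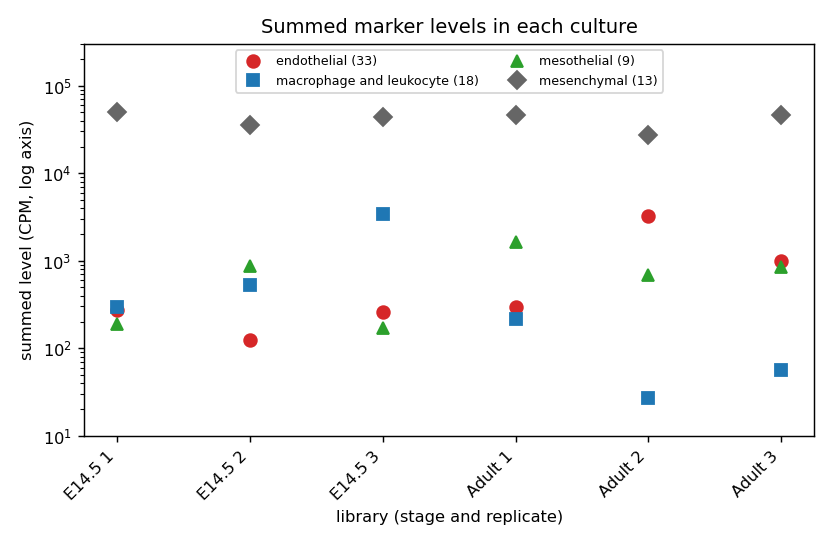
Summed CPM (log axis) of the endothelial, macrophage and leukocyte, mesothelial and mesenchymal marker lists in each of the 6 libraries, with the number of genes in parentheses. Endothelial points are highest in adult replicates 2 (3210 CPM) and 3 (980 CPM), where the macrophage and leukocyte points are lowest (27.3 and 56.3 CPM).

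Promoters were looked up for the members because many of them were high in the same cultures. RefSeq (GRCm38.p6, the assembly of mm10) gave an entry for 16 of the 33, with 22 windows, and the 250 bases before each start were searched on both strands. The windows of Emcn, Myct1 and Tek are shown because these genes were far higher in adult replicates 2 and 3, and that of Kdr because its level was alike in all adult cultures. Capitals mark CAGGAA or its reverse complement TTCCTG, a form of the motif bound by ETS factors, picked for display after its matches were seen.
Emcn, chr3:137340828-137341077, plus strand: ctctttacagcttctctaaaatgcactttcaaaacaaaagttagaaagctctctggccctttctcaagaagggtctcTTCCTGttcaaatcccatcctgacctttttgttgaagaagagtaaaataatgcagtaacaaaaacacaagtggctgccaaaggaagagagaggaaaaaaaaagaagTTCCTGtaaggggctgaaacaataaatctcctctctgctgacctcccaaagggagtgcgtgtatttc
Myct1, chr10:5593478-5593727, plus strand: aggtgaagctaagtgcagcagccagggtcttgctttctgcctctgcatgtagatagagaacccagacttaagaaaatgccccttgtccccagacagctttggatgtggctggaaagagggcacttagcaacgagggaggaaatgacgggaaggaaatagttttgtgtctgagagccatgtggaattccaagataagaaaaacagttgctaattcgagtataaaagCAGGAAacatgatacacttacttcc
Tek, chr4:94739039-94739288, plus strand: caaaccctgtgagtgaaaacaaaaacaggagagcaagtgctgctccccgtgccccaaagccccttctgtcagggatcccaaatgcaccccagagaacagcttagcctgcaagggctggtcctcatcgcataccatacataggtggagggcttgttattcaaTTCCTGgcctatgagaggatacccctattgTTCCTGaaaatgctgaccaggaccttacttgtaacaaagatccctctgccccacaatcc
Kdr, chr5:75978456-75978705, minus strand: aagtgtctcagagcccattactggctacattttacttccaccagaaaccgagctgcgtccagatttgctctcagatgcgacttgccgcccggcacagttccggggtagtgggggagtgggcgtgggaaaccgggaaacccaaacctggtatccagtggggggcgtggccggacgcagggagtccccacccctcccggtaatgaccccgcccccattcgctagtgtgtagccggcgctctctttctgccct

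CAGGAA was present in 10 of the 22 member windows (45.5%) and in 25.7% of all 32851 windows of the same length. Of the other ETS-type strings searched, which overlap it and each other, GGAAG was in 77.3% of member windows against 64.1% of all, AGGAAG in 40.9% against 29.5%, and CGGAAG in 4.55% against 13.6%. The longest, ACCGGAAG, was in 0 member windows and in 1.72% of all. ACAAT, a string of the kind SOX factors bind, was in 22.7% of member windows against 27.7% of all. AGATAA, of the kind that zinc finger factors such as GATA2 bind, was in 13.6% against 9.99%. CAGGAA matched in windows of 9 members (Egfl7, Emcn, Tek, Tie1, Rasip1, Robo4, Myct1, Clec14a and Erg). Rasip1, at most 0.703 CPM in any library, is among them. Tal1, Flt4 and Prox1, at least 10-fold higher in adult replicate 2 than in adult replicate 1, had windows without a match. GGAAG, not marked in the windows printed above, matched in those of Emcn, Myct1 and Kdr but not in that of Tek. The windows printed above thus do not stand for all members. A match is a description of the letters and no binding site.

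Of the 10 surface and junction genes, 6 were at least 10-fold higher in adult replicate 2 than in adult replicate 1 (1.25% of all genes with at least 1 CPM in a library were), Esam, Ecscr and Cd93 were not, and Cldn5 stayed under 1 CPM. Cdh5 (chromosome 8, 104101625 to 104144511 of mm10, plus strand), the adherens junction gene of endothelium, measured 0.0313, 0.155 and 0.155 CPM across E14.5 replicates 1, 2 and 3, against 0.909, 254.8 and 82.0 CPM across adult replicates 1, 2 and 3. The groups did not overlap, but adult replicate 1 lay far nearer to the embryonic libraries than to the other adult ones. Pecam1 (chromosome 11, 106654217 to 106750628, minus strand), a homophilic adhesion molecule that leukocytes and platelets also carry, measured 0.438, 0.714 and 0.463 CPM in E14.5 and 0.947, 443.9 and 81.5 CPM in adult cultures. Emcn (chromosome 3, 137341067 to 137432185, plus strand), which encodes the sialomucin endomucin of capillaries and veins, measured 22.5, 0.528 and 0.216 CPM in E14.5 and 2.39, 1073 and 191 CPM in adults. E14.5 replicate 1 thus lay above adult replicate 1 for Emcn, with 719 counts against 63, although it had 1 count of Cdh5.

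Esam, an immunoglobulin-like molecule of tight junctions, measured 1.91, 0.465 and 1.27 CPM in E14.5 and 6.55, 33.6 and 11.4 CPM in adult cultures. Mmrn2, a matrix glycoprotein that binds CLEC14A and CD93, measured 0.0313, 0 and 0 CPM in E14.5 and 0.189, 21.5 and 11.1 CPM in adults. In both genes every adult library lay above every E14.5 library. Clec14a and Icam2, a lectin-like receptor and a ligand of leukocyte integrins, had at most 0.278 CPM in the E14.5 libraries and adult replicate 1, and 9.93 and 5.61 CPM in adult replicate 2. Their levels in adult replicate 3 were 2.85 and 1.86 CPM. Cldn5, the claudin of tight barrier endothelium, stayed low everywhere, with 0 counts in all E14.5 libraries and 1, 11 and 5 counts in adult replicates 1, 2 and 3.

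Ecscr and Cd93 behaved differently from the rest of this group. Ecscr, a regulator of endothelial motility, measured 56.1, 37.5 and 43.5 CPM in E14.5 and 37.9, 108 and 56.3 CPM in adult cultures, and the groups overlapped. Cd93, a C-type lectin-like receptor also known from myeloid cells, measured 5.85, 7.32 and 16.1 CPM in E14.5 and 2.39, 16.5 and 12.7 CPM in adults. Its highest E14.5 level was in replicate 3, where macrophage and leukocyte markers summed to 3402 CPM, and the part of those cells in it was not tested.

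Among the receptors, the tyrosine kinases of the angiopoietin axis followed the surface genes, whereas KDR and FLT1 did not. Tie1 (chromosome 4, 118471191 to 118490061, minus strand), an orphan partner of TEK, measured 0, 0 and 0.0618 CPM in E14.5 and 0.454, 41.8 and 13.9 CPM in adult cultures. Tek, which binds the angiopoietins, measured 0.219, 0.217 and 0.124 CPM at E14.5, against 0.379, 18.8 and 4.32 CPM in adults. For both, adult replicates 2 and 3 were high, and adult replicate 1 lay above the embryonic range but far nearer to it than to them. Ptprb, the phosphatase that restrains TEK, measured 49.4, 26.5 and 72.0 CPM in E14.5 and 16.5, 199 and 70.8 CPM in adults, so that adult replicate 1 was the lowest of all 6.

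Kdr, the main VEGF receptor of endothelium, measured 9.04, 12.4 and 7.63 CPM in E14.5 and 15.5, 14.2 and 17.3 CPM in adult cultures. All adult levels lay above all E14.5 levels, but within the adults Kdr spanned only 14.2 to 17.3 CPM, and adult replicate 2, the richest in Cdh5, had the least. Flt1, which encodes a high-affinity VEGF receptor and decoy, measured 25.9, 2.61 and 8.96 CPM in E14.5 and 7.19, 27.1 and 21.4 CPM in adults. Flt4, the VEGFC receptor of lymphatic and sprouting vessels, measured 3.06, 3.38 and 2.41 CPM in E14.5 and 1.21, 18.5 and 8.37 CPM in adults. Adult replicate 1 was below the E14.5 libraries for Flt4 and the other adult cultures above them.

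Eng (chromosome 2, 32646595 to 32682669, plus strand), the TGF-beta co-receptor endoglin, is also known from activated mesenchymal cells. It measured 91.2, 25.4 and 81.6 CPM in E14.5 and 202, 584 and 289 CPM in adult cultures, with no overlap. It was abundant in all 6 libraries, unlike Cdh5. Robo4, a guidance receptor of quiescent vessels, had 0 counts in all E14.5 libraries and 2, 77 and 35 counts in the adult ones. Aplnr, the apelin receptor of sprouting vessels and veins, had 1 to 12 counts in every library, with its highest level of 0.371 CPM in E14.5 replicate 3.

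The transcription factors other than Sox17 were highest in adult replicate 2 and next highest in adult replicate 3. Erg, the ETS factor that maintains endothelial identity, measured 0.532, 0 and 1.88 CPM in E14.5 and 0.568, 40.9 and 6.22 CPM in adult cultures. Tal1, a regulator of blood and endothelial progenitors, measured 0.438, 0.528 and 5.28 CPM in E14.5 and 0.265, 45.3 and 7.49 CPM in adults. The E14.5 libraries did not share a level, and replicate 3, the richest in macrophage and leukocyte markers, was the highest of them for both. E14.5 replicate 2 had a larger sum of those markers than E14.5 replicate 1 (533 against 294 CPM). It had less Erg (0 against 0.532 CPM) and more Tal1 (0.528 against 0.438 CPM). The part of those cells in either gene was not tested. Of the SOXF genes, Sox7 had 0, 0 and 2 counts in E14.5 and 0, 267 and 96 counts (0, 13.3 and 3.38 CPM) in adult cultures. Sox18 measured 0.0938, 0.031 and 0 CPM in E14.5 and 0.227, 8.24 and 3.16 CPM in adults. Sox17, linked to arterial identity, had 17, 0 and 1 counts in E14.5 and 0, 21 and 2 in adults, so it did not accompany Sox7 and Sox18 in adult replicate 3. Prox1, the master regulator of lymphatic fate, measured 1.06, 0.652 and 0.773 CPM in E14.5 and 0.265, 7.05 and 3.38 CPM in adult cultures.

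Of the 8 genes of vessel function, Plvap, Myct1, Egfl7 and Nos3 were at least 10-fold higher in adult replicate 2 than in replicate 1. Among all genes with at least 1 CPM in a library, 1.25% were. Vwf and Lyve1 were not, Rasip1 stayed under 1 CPM, and Gpihbp1 had no counts to compare. Plvap (chromosome 8, 71497765 to 71511752, minus strand), the protein of fenestral diaphragms, measured 0.344, 0.0621 and 0.155 CPM in E14.5 and 0.568, 94.6 and 36.5 CPM in adult cultures. Myct1, a membrane protein of endothelium, measured 0.0938, 1.12 and 0.0309 CPM in E14.5 and 0.227, 86.7 and 22.4 CPM in adults. Egfl7, a secreted angiogenic factor whose gene hosts miR-126, measured 2.06, 1.52 and 1.55 CPM in E14.5 and 1.10, 32.0 and 14.5 CPM in adults. Adult replicate 1 lay just above the E14.5 range for Plvap, within it for Myct1 and just below it for Egfl7. Nos3, the endothelial nitric oxide synthase, reached 3.43 and 1.90 CPM in adult replicates 2 and 3 and at most 0.124 CPM elsewhere.

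Vwf, the clotting protein stored by endothelium and platelets, went another way. It measured 1.91, 1.52 and 13.6 CPM in E14.5 and 0.416, 2.28 and 2.21 CPM in adult cultures, and was highest in E14.5 replicate 3. Platelet and erythroid markers (10 genes) summed to 31.9, 9.68 and 22.6 CPM at E14.5 and to 5.81 to 9.18 CPM in adults, and their part in Vwf was not tested. Within that list Ppbp was highest in E14.5 replicate 1 (26.5, 2.30 and 3.65 CPM at E14.5), and Pf4, like Vwf, in E14.5 replicate 3 (1.13, 4.90 and 14.3 CPM). Lyve1, a hyaluronan receptor of lymphatic vessels and some macrophages, measured 1.88, 1.24 and 0.803 CPM in E14.5 and 0.947, 0.894 and 0.984 CPM in adults, so neither adult replicate 2 nor 3 stood out. Macrophages' part in its level was not tested. Rasip1, a Ras-binding protein needed for vessel lumens, stayed at or below 0.703 CPM, and 20.4% of its exon bases are shared with Izumo1 on the same strand. Gpihbp1, which carries lipoprotein lipase across capillary endothelium, had 0 counts in every library, which allows up to 0.149 CPM in adult replicate 2 (a limit of 3 counts, counting error only).

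Per kilobase of merged exon, which allows genes to be compared, the order of levels changed between cultures. Adult replicate 2 was led by Emcn (198 CPM per kb), Eng (144), Pecam1 (71.3), Ecscr (61.5) and Cdh5 (60.6). Adult replicate 3 was led by Eng (71.4), Emcn (35.3), Ecscr (32.2) and Cdh5 (19.5). In adult replicate 1 and the E14.5 libraries the first 2 places went to Eng and Ecscr, at 6.27 to 49.9 CPM per kb. In a grouping made after the values were seen, Eng, Ecscr, Ptprb, Kdr, Flt1 and Cd93 together made up 86.3% to 93.9% of the summed level in these 4 libraries, 29.5% in adult replicate 2 and 47.7% in adult replicate 3. The other 27 members summed to 37.8, 12.5 and 29.9 CPM across the E14.5 libraries, against 18.2, 2262 and 513 CPM across the adult ones.

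Differences between single adult libraries were then described, with genes of at least 1 CPM in at least 1 library (29 members) and libraries at fewer than 3 counts set to 3. These ratios compare libraries and have no replicate check. At least 1 CPM was reached by 28 members in adult replicate 2 and by 27 in adult replicate 3. In adult replicate 1 it was 10 members, and in E14.5 replicates 1, 2 and 3 it was 13, 11 and 12. Members such as Sox7 and Robo4 thus entered only through adult replicates 2 and 3, and this way of choosing genes favours high ratios there. In adult replicate 2, 20 of the 29 members were at least 10-fold above adult replicate 1, where the share among all 13245 such genes was 1.25%. In adult replicate 3 it was 18 of 29, against 0.461% of all genes. None of the 29 was 10-fold above adult replicate 1 in E14.5 replicates 1 and 2 (1.42% and 0.649% of all genes), and 2, Vwf and Tal1, were in E14.5 replicate 3 (3.5% of all genes). The median ratio to adult replicate 1 over the 29 members was 33.7 for adult replicate 2 and 12.3 for adult replicate 3, and 0.816 to 0.826 for the E14.5 libraries, where over all genes it was 0.989 to 1.02 in these 5 libraries. Those under 10-fold in adult replicate 2 were Sox17 (at least 9.18-fold against the floor of 3 counts), Cd93 (6.91-fold), Vwf (5.49), Esam (5.13), Flt1 (3.76), Eng (2.89), Ecscr (2.84), Lyve1 (0.945) and Kdr (0.914).

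The highest of these ratios were those of Pecam1, Emcn, Myct1 and Cdh5. Pecam1 was 469-fold higher in adult replicate 2 than in adult replicate 1 (exact 95% interval 318 to 725, counting error only), and Emcn was 450-fold higher (351 to 585). Myct1 was 382-fold (175 to 1040) and Cdh5 280-fold (188 to 438) higher. Sox7, with 0 counts in adult replicate 1, was 117-fold higher against a floor of 3 counts per library, with an exact 95% lower limit of 94.3. In adult replicate 1, Cdh5, Pecam1 and Tie1 had 24, 25 and 12 counts, against 1 to 5, 14 to 23 and 0 to 2 counts in the E14.5 libraries. Other members went the other way. Emcn had 63 counts there against 719 in E14.5 replicate 1, Myct1 had 6 against 36 in E14.5 replicate 2, and Sox7 had 0 against 2 in E14.5 replicate 3.

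The ratio of the members between adult replicates 2 and 3 is given as a description of these 2 libraries, with no replicate check. Among the 20 genes at least 10-fold up in adult replicate 2, which that library's own values chose, the ratio of adult replicate 2 to adult replicate 3 ran from 1.81 for Nos3 to 6.58 for Erg, with a median of 3.06. Erg (5.58 to 7.78), Tal1 at 6.06 (5.21 to 7.06), Emcn at 5.61 (5.45 to 5.79) and Pecam1 at 5.45 (5.20 to 5.70) had intervals above those of Cdh5 at 3.11 (2.96 to 3.27), Tie1 at 3.00 (2.66 to 3.39) and Plvap at 2.59 (2.40 to 2.80). Mmrn2 at 1.94 (1.67 to 2.24) was lower still, whereas the interval of Prox1 at 2.09 (1.60 to 2.74) overlapped those of Tie1 and Plvap. These exact 95% intervals cover counting error only.

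**Figure D3:**
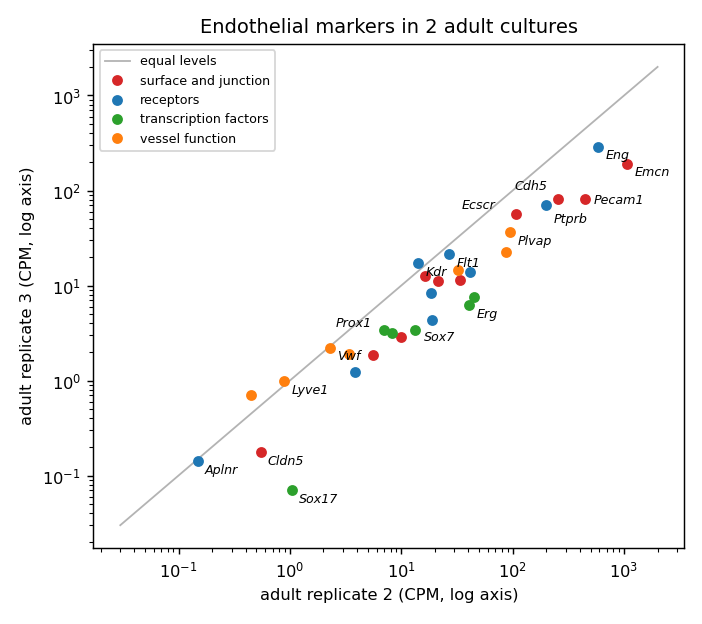
Level of each member with counts in both libraries in adult replicate 2 (x axis, CPM) and adult replicate 3 (y axis, CPM), on log axes, coloured by role, with a line of equal levels. Most points lie below the line, Erg farther than Cdh5 or Plvap (ratios of 6.58, 3.11 and 2.59), whereas Kdr and Lyve1 lie near it.

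The test between stages asked which members differ between embryonic and adult cultures. Most members were lower in E14.5 on average, yet none of the 21 tested passed edgeR's quasi-likelihood test at an adjusted p of 0.05 over all genes, where 1.08% of the 13478 genes did. At an unadjusted p under 0.05, 10 of 21 were lower in E14.5 (9.26% of all genes, 17.9% in either direction) and 0 were higher. DESeq2 called 9 of 21, all lower in E14.5 (5.47% of all genes, 10.6% in either direction), and limma-voom called 0 (0.749% of all genes lower, 0.927% in either direction). Of the 21, 19 had a negative log2 fold change (E14.5 over adult), with a median of -3.08 against 0.01 for all genes. The other 12 members did not reach the filter on low counts, 11 of them with some counts and Gpihbp1 with none. Since the filter asks for counts in 3 libraries, it left out Sox7, Mmrn2, Clec14a and others that were high in adult replicates 2 and 3 alone, and with no filter the median over 32 members was -3.81 with 0 called (0.629% of all genes lower, 0.822% in either direction).

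Among the tested members, Cdh5 had the largest decrease in E14.5 cultures by edgeR, with a log2 fold change of -9.89 (SE 2.20). It went from 113 ± 130 CPM in adults to 0.114 ± 0.0713 CPM (SD, n = 3 each, edgeR adjusted p = 0.102). Tie1 had -9.54 (SE 2.06), Pecam1 -8.34 (SE 2.11) and Plvap -7.84 (SE 1.87), with edgeR adjusted p of 0.0975, 0.125 and 0.116. Esam, with -3.82 (SE 0.81), had the lowest adjusted p of the members at 0.0968, and Emcn had -5.77 (SE 2.49, adjusted p = 0.299). In each of these genes except Esam, at 17.2 ± 14.4 CPM (SD, n = 3), the adult SD exceeded the adult mean. Eng had a smaller difference, -2.44 (SE 0.60, adjusted p = 0.121), and Kdr the smallest SE, with -0.69 (SE 0.23, adjusted p = 0.184). The values for Lyve1, at 0.47 (SE 0.42), and Vwf, at 1.79 (SE 1.05), were positive and did not pass the test (edgeR adjusted p of 0.644 and 0.458).

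All adult libraries lay above all E14.5 libraries for 8 of 21 tested members (Pecam1, Cdh5, Esam, Eng, Kdr, Tek, Tie1 and Plvap), where 12.0% of all tested genes did, and the reverse held for 0. The comparison of stages depended on the adult libraries. Without adult replicate 1, edgeR called 5 of 30 members lower in E14.5 (0.231% of all genes lower, 0.274% in either direction), namely Cdh5 and Plvap at adjusted p = 0.0438, Pecam1 and Tie1 at 0.0473, and Mmrn2. Without adult replicate 2 it called 0 members (0.283% of all genes lower, 0.334% in either direction), and without adult replicate 3 also 0 (0.0217% lower, 0.0217% in either direction). Without both, the median over 22 members was 0.71 in place of -3.08, 15 of the 22 were higher in E14.5, 2 had an unadjusted p under 0.05, and edgeR called 0 of them and 0.0% of all genes, with 1 adult library assumed to vary like the E14.5 ones.

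**Figure D4:**
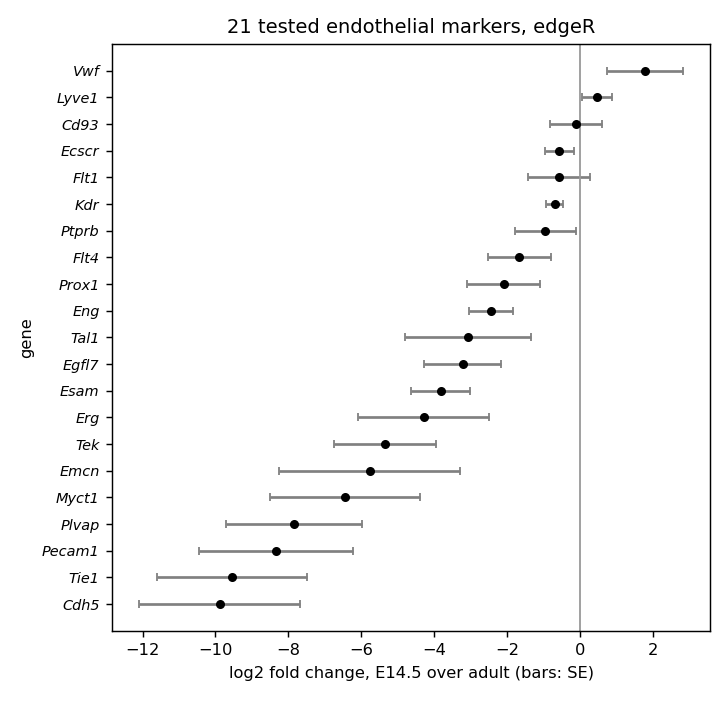
Log2 fold change of E14.5 over adult (x axis) for each of the 21 tested members (rows), from edgeR, with bars of 1 SE on each side. The values run from -9.89 for Cdh5 to 1.79 for Vwf, and none passed the test over all genes.

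The kind of endothelium was read from prepared lists of arterial, venous, capillary and lymphatic genes. Venous Selp, the P-selectin gene, measured 0.0625, 0.403 and 0 CPM in E14.5 and 2.69, 268 and 39.8 CPM in adult cultures. Sele, the inducible E-selectin gene, reached 5.46 and 2.46 CPM in adult replicates 2 and 3 and at most 0.0379 CPM elsewhere. Darc, the atypical chemokine receptor of venules, had at most 0.0938 CPM in any library. Nr2f2 measured 51.8, 16.1 and 23.7 CPM in E14.5 and 43.3, 48.1 and 47.6 CPM in adults, so it did not follow Selp and Sele. Vcam1, also a gene of mesenchyme, measured 12.6, 57.0 and 22.1 CPM in E14.5 and 96.6, 194 and 123.5 CPM in adults, and Ephb4 averaged 55.0 ± 11.4 and 88.0 ± 17.2 CPM (SD, n = 3 each). None of the 4 tested venous genes passed the edgeR test (3 at an unadjusted p under 0.05, all lower in E14.5, where 17.9% of all genes were in either direction), and their median log2 fold change was -1.43.

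Among arterial genes, Bmx, a kinase of arterial endothelium, had 0 counts in all E14.5 libraries and 0.0379, 136 and 8.86 CPM in adult replicates 1, 2 and 3. Gja4, a gap junction gene of arteries, reached 11.7 and 7.07 CPM in adult replicates 2 and 3 and at most 0.189 CPM elsewhere. In contrast, Cxcr4, a chemokine receptor that leukocytes also carry, was lowest there, at 0.0993 and 1.02 CPM, against 4.01 CPM in adult replicate 1 and 2.66, 2.76 and 14.3 CPM at E14.5. Gja5, another arterial gap junction gene, measured 1.88, 0.031 and 0.803 CPM at E14.5 and 0, 2.09 and 0.0352 CPM in adults, so adult replicate 3 was not high. Dll4, the Notch ligand of arteries and tip cells, stayed at or below 0.397 CPM. Hey1 and Hey2 spanned only 3.23 to 4.82 and 8.34 to 10.6 CPM within the adults, whereas Acvrl1 measured 12.0, 52.1 and 18.8 CPM across adult replicates 1, 2 and 3. Unc5b, Nrp1 and Efnb2, the most abundant arterial genes, were present in all 6 libraries, at means of 172, 293 and 116 CPM in E14.5 and 320, 148 and 115 CPM in adults. Of 9 tested arterial genes, 0 passed the edgeR test (1 at an unadjusted p under 0.05, Nrp1, higher in E14.5, against 17.9% of all genes), with a median of 0.01.

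The 8 capillary and tip cell genes were mixed. Esm1, a proteoglycan of tip cells, measured 0.156, 0.0621 and 0.371 CPM in E14.5 and 1.29, 85.6 and 29.5 CPM in adults. Apln, the ligand of APLNR, reached 37.1 and 13.6 CPM in adult replicates 2 and 3 and at most 0.563 CPM elsewhere. The water channel gene Aqp1 reached 12.8 and 4.89 CPM there and at most 0.757 CPM elsewhere. Fabp4, a fatty acid carrier, measured 3.97 CPM in adult replicate 2, with adult replicate 3 next and at most 2.10 CPM elsewhere. Car4 and Cd300lg, of mature capillaries, had at most 0.199 CPM and 0 counts, and Ly6c1 at most 0.447 CPM. Cd36, a fatty acid receptor that macrophages also carry, ran the other way at 10.2, 24.1 and 54.9 CPM in E14.5 and 0.984, 0.0497 and 0.281 CPM in adults, a log2 fold change of 6.02 (SE 1.03) with an edgeR adjusted p of 0.0646. The summed macrophage and leukocyte markers were likewise higher in each E14.5 library than in any adult one, though not each gene of the list, and their part in Cd36 was not tested. Of 5 tested capillary genes, 0 passed the edgeR test (4 at an unadjusted p under 0.05, 3 lower and 1 higher in E14.5, against 17.9% of all genes), with a median of -5.17.

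Lymphatic genes were uneven. Prox1, Flt4 and Tbx1, a regulator of lymphatic growth, were highest in adult replicates 2 and 3, with Tbx1 at 7.50 and 1.97 CPM there and at most 0.0313 CPM elsewhere. Lyve1 was level across the adult cultures, Ccl21a had 0 counts in all libraries, and Reln, Mmrn1 and Stab2 had at most 0.594, 1.37 and 0.433 CPM. Reads of Ccl21a may be lost to its near-identical copies. Pdpn, a mucin of lymphatic vessels that mesothelium and fibroblasts also carry, measured 42.8, 407 and 62.5 CPM in E14.5 and 442, 225 and 350 CPM in adults, so E14.5 replicate 2 lay with the adult libraries. The mesothelial sum was 191, 879 and 171 CPM at E14.5, against 1627, 691 and 855 CPM in adults, and their part in Pdpn was not tested. Stab1, a scavenger receptor that macrophages share, measured 19.9, 55.8 and 271 CPM at E14.5 and 9.65, 69.2 and 35.9 CPM in adults. It was highest where the macrophage and leukocyte markers were highest, and next highest in adult replicate 2, where their sum was lowest (27.3 CPM). The part of macrophages in Stab1 was not tested. Nrp2, a VEGFC co-receptor, averaged 162 CPM at E14.5 and 69.3 CPM in adults. Of 7 tested lymphatic genes, 0 passed the edgeR test (2 at an unadjusted p under 0.05, 1 lower and 1 higher in E14.5, against 17.9% of all genes), with a median of -0.55.

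**Figure D5:**
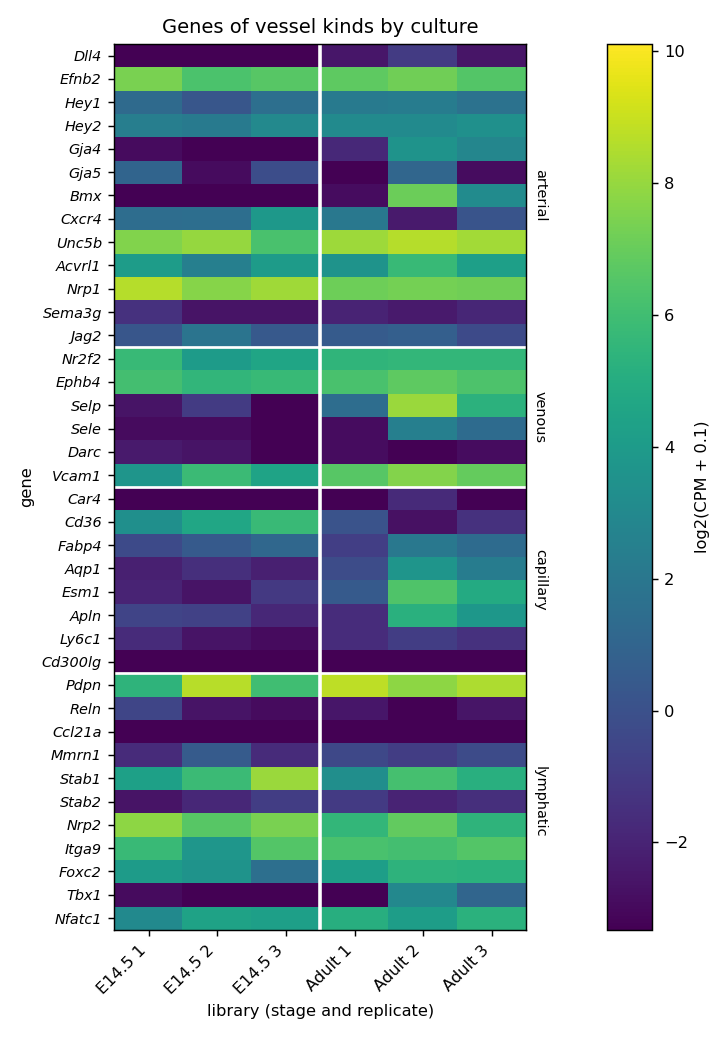
Levels of the arterial, venous, capillary and lymphatic lists (rows) in each of the 6 libraries (columns), as log2(CPM + 0.1), with a white line between E14.5 and adult cultures. Selp, Bmx, Gja4, Esm1, Apln and Tbx1 are brightest in adult replicates 2 and 3, whereas Ccl21a and Cd300lg have 0 counts in all 6 libraries.

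Other endothelial genes, outside these kinds, repeated the pattern in part. Of 19 tested among 23 with a row, 0 passed the edgeR test (5 at an unadjusted p under 0.05, 4 lower and 1 higher in E14.5, against 17.9% of all genes), with a median of -0.68. Gpr116, an adhesion receptor of endothelium and lung, measured 3.38, 5.96 and 0.742 CPM in E14.5 and 7.72, 233 and 52.1 CPM in adults. Gata2, a regulator of endothelial and blood progenitors, measured 5.16, 1.71 and 1.42 CPM in E14.5 and 30.0, 83.3 and 34.9 CPM in adults, a log2 fold change of -4.16 (SE 0.69) with an edgeR adjusted p of 0.0602. Adult replicate 1 shared the adult level of Gata2 but not that of Gpr116. Mcam, Heg1 and Ets1, the most abundant of the list, averaged 535, 233 and 68.9 CPM in E14.5 and 712, 374 and 65.9 CPM in adults.

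The ligands of the member receptors held the only related genes past the test. Of 7 tested ligands, 2 fell in E14.5 by edgeR (0.838% of all genes did) and 0 rose. Angpt2, a TEK ligand that endothelium itself makes, measured 0.938, 0.931 and 1.39 CPM in E14.5 and 17.1, 53.4 and 41.8 CPM in adults, a log2 fold change of -5.10 (SE 0.50) with an edgeR adjusted p of 0.0222. Figf, which encodes VEGFD, a ligand of FLT4, measured 6.07, 11.7 and 5.93 CPM in E14.5 and 105, 41.5 and 106 CPM in adults, a log2 fold change of -3.41 (SE 0.48) with an edgeR adjusted p of 0.0405. Both were raised in adult replicate 1, which had little Cdh5. Leaving out either E14.5 replicate 1 or adult replicate 3 ended both calls, and leaving out either E14.5 replicate 3 or adult replicate 1 ended that of Figf. Both calls also ended with limma-voom, with the prefix of the sample title as a block, and with E14.5 replicate 3 and adult replicate 2 both left out. Vegfa and Vegfc averaged 176 and 14.7 CPM in E14.5 and 292 and 24.1 CPM in adults, and did not pass the test (edgeR adjusted p of 0.378 and 0.301).

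The labels do not explain the prefix of a sample title, and its part in the spread between adult cultures was not tested. The E14.5 library sharing a prefix with adult replicate 2 had the lowest sum of all, 124 CPM, and the one sharing it with adult replicate 3 had 260 CPM. In E14.5 replicate 2, 89.9% of that sum came from Eng, Ecscr, Ptprb, Kdr, Flt1 and Cd93, and single genes differed. Myct1 measured 1.12 CPM there against 0.0938 and 0.0309 CPM in E14.5 replicates 1 and 3, whereas Erg measured 0 against 0.532 and 1.88 CPM.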

How the data were processed

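RNA was sequenced from 3 E14.5 and 3 adult cultures as stranded poly(A) libraries, per the labels' protocols. The authors deposited raw read counts per gene, 1 table per library, from reads aligned with STAR to mm10, per the submitters' processing notes. No source used here names the STAR version, the gene annotation or how reads shared by genes were counted. The reverse-strand column was used, since forward counts made up 1.33% to 1.69% of stranded gene counts. Rows that name no gene held 17.45% to 19.81% of reads and were left out.

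In R 4.3.3, genes kept by filterByExpr were scaled by TMM and tested with edgeR 4.0.16 (quasi-likelihood, robust, Benjamini-Hochberg over 13478 genes, threshold 0.05). SE is the log2 fold change divided by the square root of F. The alternatives were DESeq2 1.42.0, limma-voom (limma 3.58.1), other scalings, filters and counting, the title prefix as a block, and libraries left out. Exon lengths and coordinates are from GENCODE vM21. Zero-count ratios used a floor of 3 counts. The edgeR steps were tested on simulated counts in which every gene had the same dispersion. The large spread between adult cultures seen for members such as Cdh5 was not simulated.

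Replicates were numbered in accession order. The members and lists were chosen with earlier results of these data known. Members with at least 10 CPM in a library were named with all values. From each related list, the genes past the test and the 3 of highest mean were named, and other genes of these lists were picked after their values were seen. Genes other than the 33 members were ranked by log2 CPM in the library of highest member sum minus the next highest library.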

Additional observations from a re-analysis of the deposited data

How the results depend on the processing

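The count of all genes that differ between stages, 146 by edgeR, was 1427 with DESeq2, 2 with the title prefix as a replicate block, 0 without adult replicates 2 and 3, and 36 with E14.5 replicate 3 and adult replicate 2 both left out. Leaving out 1 library gave 3 to 471. The count of members called, 0, was 9 with DESeq2 and 0 to 5 with 1 library left out, 5 being without adult replicate 1. It stayed 0 with the replicate block and in the other alternatives. The count over the 6 related lists, 2, was 13 with DESeq2 (which called 10.6% of all genes), 0 with limma-voom, 0 with the replicate block, 0 without adult replicates 2 and 3, 0 with E14.5 replicate 3 and adult replicate 2 both left out, and 0 to 5 with 1 library left out. Libraries sharing a title prefix did not deviate together (correlations of -0.0875 to -0.229 across genes), and the prefix served only as an alternative block. The forward share of stranded counts did go with the prefix. In adult and E14.5 libraries it was 1.54% and 1.49% for replicate 1, 1.69% and 1.68% for replicate 2, and 1.33% and 1.34% for replicate 3. The share of reads in rows that name no gene ranked the prefixes alike in both stages. The part of the prefix in the stage comparison was tested only by that block.

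The median log2 fold change of the members, -3.08, was -2.11 with limma-voom and -2.09 with the stricter filter. With 1 library left out it ran from -1.9 (without adult replicate 2) to -4.37 (without E14.5 replicate 3), over differing numbers of tested members. The median became 0.71 without adult replicates 2 and 3. In that fit the sign turned for Emcn (1.70), Flt1 (0.79), Erg (0.48), Egfl7 (0.63), Ecscr (0.26), Ptprb (1.56), Tal1 (2.93), Flt4 (1.28), Prox1 (1.62), Cd93 (2.02) and Myct1 (0.86). With 1 library left out, Ptprb ran from -1.45 (without adult replicate 1) to 0.17 (without adult replicate 2). Emcn ran from -10.13 (without E14.5 replicate 1) to -3.65 (without adult replicate 2). Cd93, at -0.11, turned to 0.21 with limma-voom, 0.15 with the replicate block, 0.15, 0.07, 0.37 and 0.05 without E14.5 replicate 1, E14.5 replicate 2, adult replicate 2 and adult replicate 3, and was -0.67 without E14.5 replicate 3. Of 329 alternative values for single members, 298 kept their direction and side of the threshold, 18 turned and 13 came to pass it. The summed level of adult replicate 2, 3210 CPM, was 3429 CPM when scaled by library size alone and 3214 CPM when counted unstranded. Without Emcn, the most abundant member in that library, it fell to 2137 CPM, and that of adult replicate 3 fell from 980 to 789 CPM. The other libraries then held 124 to 297 CPM. The spread within the adult stage comes mostly from adult replicate 2, so it gives no yardstick for these moves.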

Other observations

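Genes other than the 33 members that shared the lead of adult replicate 2 were ranked, as a description, by the difference in log2 CPM between that library and the next highest. Of 15 genes named, Col2a1, the collagen of cartilage, came first with 290 CPM in adult replicate 2, 18.5 CPM in adult replicate 3 and at most 0.402 CPM elsewhere. Cxcl13, a chemokine that attracts B cells, measured 9.04 CPM in adult replicate 2 and at most 0.527 CPM elsewhere. Bmx and Selp, of the arterial and venous lists, ranked 3 and 9. Dio2, the deiodinase that activates thyroid hormone, measured 35.1 CPM in adult replicate 2, 0.211 CPM in adult replicate 3 and at most 2.25 CPM elsewhere, so it did not follow the endothelial genes into adult replicate 3. F5, the coagulation factor V gene, measured 6.01 CPM and at most 0.668 CPM elsewhere. Cdh13, a cadherin without a cytoplasmic domain, measured 45.9 CPM in adult replicate 2 and 7.45 CPM in adult replicate 3, but also 6.22 and 6.15 CPM in E14.5 replicates 1 and 3. Frzb, a secreted Wnt antagonist, measured 35.2 CPM and 6.01 CPM in adult replicates 2 and 3. The other 7 were Lnx1, Tnfrsf26, Ano5, Syt13, Nptx1, Akr1c18 and Syt17, at 4.42 to 16.8 CPM in adult replicate 2. Adult replicate 3 was the next highest library for 12 of the 15, which were chosen by these values and carry no test.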
